A study of Mus musculus with 40 samples.

Results

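The retinas of laser-treated mice were compared between animals with and without an endothelial deletion of *Tgfbr2*, the gene of the TGFβ type II receptor, on both diets of the study. All 20 retina libraries of the 40 libraries in the series entered, 10 labelled CrePos and 10 labelled CreNeg, each from 1 mouse. CrePos mice (*Tgfbr2*ΔEC) carried 2 floxed *Tgfbr2* alleles and the tamoxifen-inducible recombinase *Cdh5*-CreERT2, which is driven by the promoter of the endothelial adhesion gene *Cdh5*. CreNeg mice (controls) were littermates with the same 2 floxed alleles and no recombinase. Both genotypes were of both sexes on a C57BL/6J background, received tamoxifen eye drops on 5 consecutive days from an age of 6 to 7 weeks, and had 6 laser burns per eye that break Bruch's membrane. Retinas were collected 3 days after the laser. In each genotype 5 mice ate control food (– PLX) and 5 ate food with PLX5622 (+ PLX), an inhibitor of the CSF1 receptor that depletes mononuclear phagocytes (MP), from the first tamoxifen drop to the end. No retina without laser or without tamoxifen was among the samples used here, so each difference below is one between injured, tamoxifen-treated retinas.

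TGFβ ligands are secreted in a latent form, bound to latency proteins and the matrix, and have to be released before they bind the type II receptor. That receptor then recruits and phosphorylates the type I receptor, and the complex activates SMAD2 and SMAD3, which enter the nucleus with SMAD4. Endothelial cells also carry ALK1 (*Acvrl1*) and its co-receptor endoglin (*Eng*), which relay BMP and TGFβ signals to SMAD1, SMAD5 and SMAD9. In the retina, TGFβ signals between endothelial cells, pericytes, astrocytes and Müller glia take part in vessel maturation and in keeping the inner blood-retinal barrier, and glia answer injury with a reactive program known as gliosis. The genes described are 241 members of 11 lists of vascular, mural, glial and TGFβ-related genes, and 236 of them, those averaging 1 normalized count or more in these 20 retinas, were tested. Of the 241, 224 were above 0 in each of the 20 retinas.

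A retina library held between 22256892 and 24507335 normalized counts, the authors' read estimates after scaling between libraries. This corresponds to about 20940403 to 30421581 reads if 1 scaling factor per library is assumed. Markers of photoreceptors and retinal neurons were high in each library (summed normalized counts of 16 genes 935100 to 1395000), and the endothelial marker *Cldn5* and the glial marker *Gfap* were above 0 in all 20. The retina of mouse 1 (control – PLX) stood apart, with 357 genes more than 2-fold above all other retinas against 14 to 74 in the others, among them the surface epithelium keratin *Krt5* at 5856 normalized counts against at most 26.9 elsewhere. Mouse 11 (control + PLX) lay farthest out on the first principal component, which held 13.8% of the variance. *Xist* exceeded 1000 normalized counts, as in females, in 4 of 10 control and 7 of 10 *Tgfbr2*ΔEC retinas, so sex and genotype were not balanced. Summed retinal pigment epithelium (RPE) and choroid markers had a median of 5890 (range 1749 to 9026) in controls and 7301 (4786 to 9444) in *Tgfbr2*ΔEC retinas, and 11 of these 12 markers had a higher estimate in *Tgfbr2*ΔEC, none past the adjusted test. Summed lens markers reached 15480 in controls and 5457 in *Tgfbr2*ΔEC, with medians of 832 and 798, and 10 of the 10 lens genes had a lower estimate in *Tgfbr2*ΔEC. None of the lens genes had an unadjusted p under 0.05, and over all genes tested 51.2% had a lower estimate. Whole reads could not be recovered from the values, so no count model was used, and floors given here cover counting error only.

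*Tgfbr2* (chromosome 9, 115913361 to 116004800, minus strand, GRCm39) was the first gene to look at, since it is the floxed one. In control – PLX it stood at 293, 164, 190, 172 and 248 normalized counts in mice 1 to 5, and in *Tgfbr2*ΔEC – PLX at 285, 107, 216, 164 and 117 in mice 6 to 10. In control + PLX it stood at 66.4, 115, 152, 155 and 125 in mice 11 to 15, and in *Tgfbr2*ΔEC + PLX at 101, 140.0, 106, 127 and 91.5 in mice 16 to 20. The genotypes overlapped in both diets, and 6 of 10 *Tgfbr2*ΔEC retinas lay below the control median of their diet. Over both diets the mean was 168 ± 64.9 in controls and 145 ± 61.4 in *Tgfbr2*ΔEC (SD, n = 10). The log2 difference was −0.20 (SE 0.19, 95% interval −0.58 to 0.19, adjusted p = 0.92 by limma over all genes), and the exact permutation test within diets gave p = 0.321, unadjusted. A reduction of the whole-retina level below 0.668-fold thus lay outside the interval. Many retinal cell types besides endothelium express this receptor, the gene-level value also counts reads outside the floxed stretch, and a non-coding gene (*Gm4668*) lies on the opposite strand, so that this value is no measure of how complete the endothelial deletion was. In whole retinas fewer cells of a type and less RNA per cell cannot be told apart, here and in all results that follow.

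*Cldn5* (chromosome 16, 18595597 to 18597012, plus strand) codes for the main tight-junction claudin of barrier endothelium. It stood at 355, 463, 439, 272 and 426 in control – PLX and at 406, 490, 352, 266 and 175 in *Tgfbr2*ΔEC – PLX. With PLX it stood at 566, 213, 297, 233 and 272 in controls and at 289, 303, 193, 265 and 202 in *Tgfbr2*ΔEC. Both pairs of groups overlapped, with mouse 11 highest and mouse 10 lowest of all. The log2 difference over both diets was −0.27 (95% interval −0.65 to 0.11, adjusted p = 0.92), but −0.158 without mouse 11 and −0.167 without mouse 10, and 7 of 10 *Tgfbr2*ΔEC retinas lay below the control median of their diet.

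*Gfap* (chromosome 11, 102778159 to 102791738, minus strand), the intermediate filament of astrocytes that Müller glia take up on injury, stood at 1276, 2150, 2074, 695 and 1513 in control – PLX and at 1690, 1680, 1520, 1334 and 628 in *Tgfbr2*ΔEC – PLX. Among retinas with PLX it was at 3089, 2056, 2779, 1570 and 1428 in controls and at 1286, 1592, 1193, 1161 and 1347 in *Tgfbr2*ΔEC. Without PLX the genotypes covered much the same range, while with PLX mouse 17 was the only *Tgfbr2*ΔEC retina above the lowest control. Its log2 difference came to −0.15 without PLX, −0.67 with PLX and −0.41 over both diets (95% interval −0.85 to 0.03, adjusted p = 0.92). The exact permutation p was 0.0975 over both diets, 0.667 without PLX and 0.0238 with PLX, all unadjusted. The effects in the diets differed by 0.53 on the log2 scale (limma's adjusted p = 1.00), and with a sex term the value over both diets was −0.23.

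**Figure D1:**
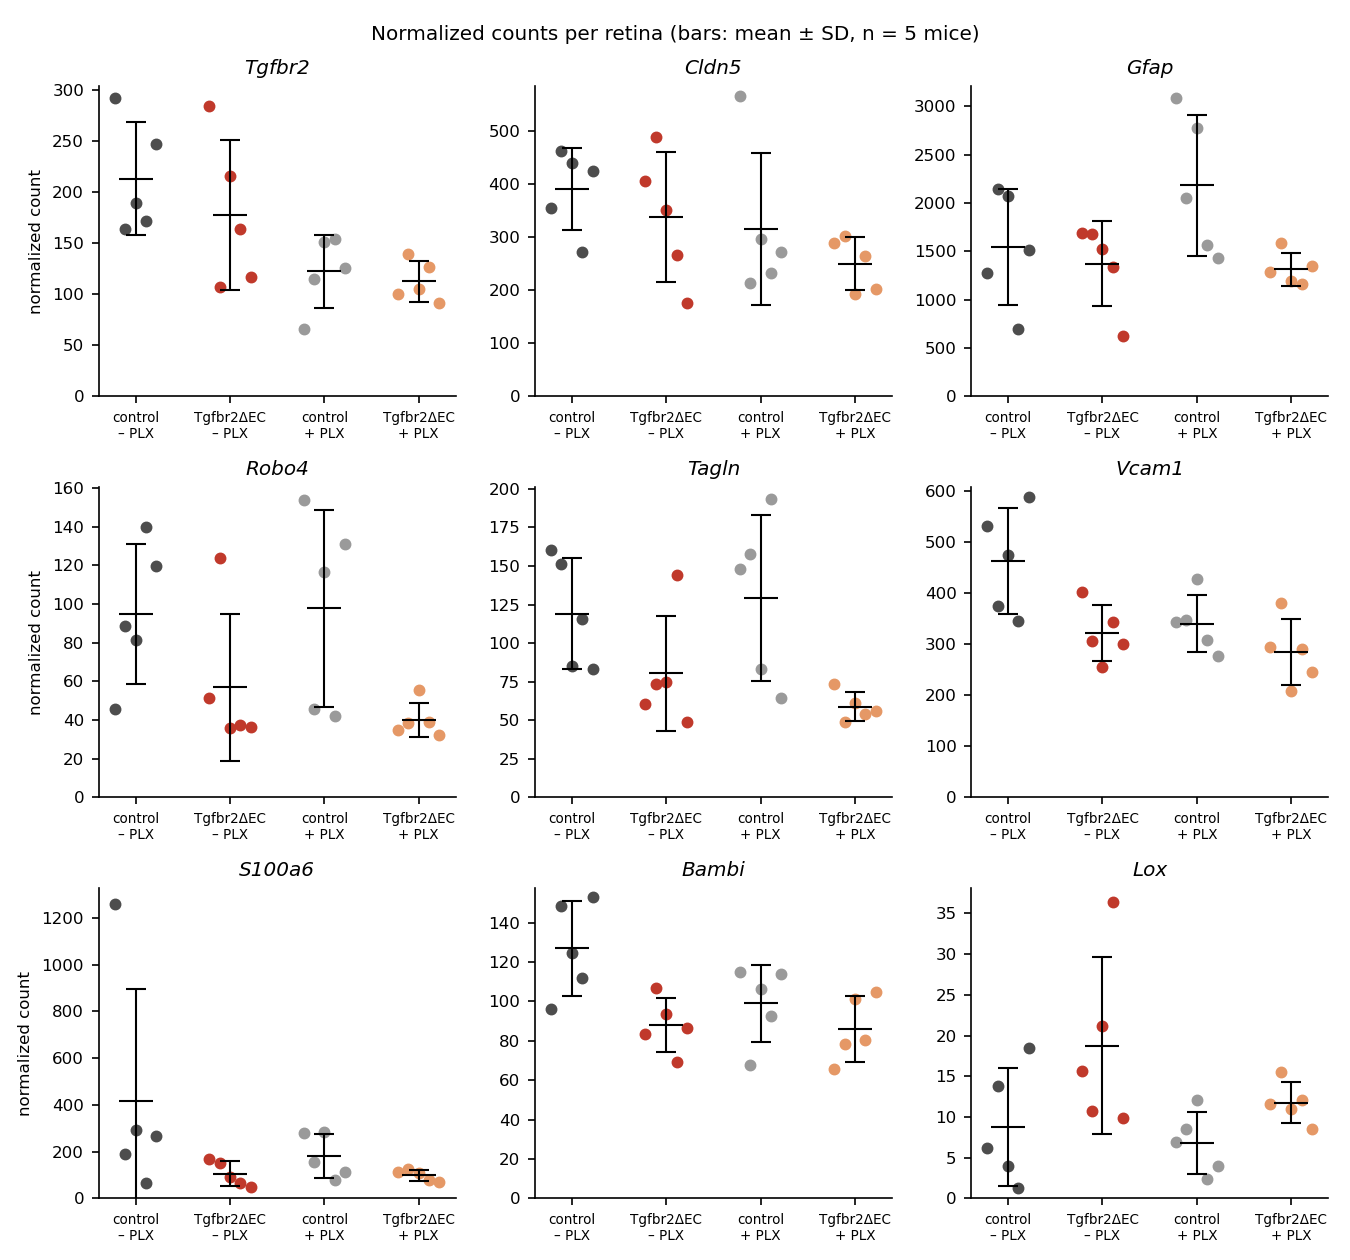
Normalized counts of 9 genes in each of the 20 retinas, with genotype and diet on the horizontal axis; points are single mice and bars the mean ± SD of 5 mice, cut off at 0 for *S100a6*. *Tgfbr2* and *Cldn5* overlap between genotypes in both diets, and the S100a6 value of 1262 belongs to mouse 1.

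Across all 23243 genes tested, limma called 0 genes between the genotypes over both diets at an adjusted p of 0.05 or less (0.0% of genes), and the lowest adjusted p was 0.84. An unadjusted p under 0.05 was found for 908 genes (3.91%), 410 higher and 498 lower in *Tgfbr2*ΔEC, and for 13 of the 236 list members, 3 higher and 10 lower, which is 5.51% of them. Without PLX alone 0 genes were called (0.0%), 758 had an unadjusted p under 0.05 (3.26%), and 12 members did. With PLX alone 0 genes were called (0.0%), 629 had an unadjusted p under 0.05 (2.71%), and 10 members did. Since 5% of genes pass an unadjusted 0.05 where nothing differs, these shares are near or below that level. The count over both diets was 1554 without mouse 7, and that without PLX was 1563 without mouse 7 and 1299 without mouse 4, still with 0 genes called. Each of these counts was above 5% of the 23243 genes. No gene separated the 10 retinas of one genotype from the 10 of the other (0 genes, 0.0%). The groups of 5 did not overlap for 111 genes without PLX (0.478%), none of them a member, and for 98 with PLX (0.422%), 1 of them a member: *Hey1*, an effector of Notch signaling, was at 306 to 385 in *Tgfbr2*ΔEC + PLX against 219.6 to 288 in control + PLX.

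The same 20 retinas showed the diet. In the same fit 252 genes were called between the diets (1.08%), among them 11 of 11 tested MP markers and 6 of the 236 members. Those 6 were *Tgfb1*, a ligand that MP express (log2 difference with minus without PLX −0.98), the TGFβ-induced matrix gene *Tgfbi* (−2.03), the acute-phase genes *Lcn2* (−2.004) and *Steap4* (−1.91), the cytokine *Tnf* (−1.40), and *Dio2*, the thyroid hormone deiodinase of glia (0.76). Summed MP markers lay between 2086 and 4793 in retinas without PLX and between 384 and 522.5 in those with PLX, and the genotypes overlapped within each diet.

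Among 26 endothelial genes the median log2 difference was −0.06, with 17 lower and 9 higher in *Tgfbr2*ΔEC, beside a median of −0.005 and 51.2% lower over all genes tested. *Pecam1* (CD31) was at 278 ± 27.2 in controls and 265 ± 40.8 in *Tgfbr2*ΔEC (log2 difference −0.08, 95% interval −0.28 to 0.12), and *Kdr*, the main VEGF receptor, at 3702 ± 494 and 3592 ± 660 (−0.06, −0.27 to 0.16). *Flt1*, the decoy VEGF receptor, gave 0.11 (−0.09 to 0.30), and *Cdh5*, whose promoter drives the recombinase, −0.19 (−0.68 to 0.30), which ran from −0.32 to −0.092 as single mice were left out and was −0.006 with an RPE and choroid term. *Eng*, the endothelial TGFβ co-receptor, gave 0.17 (−0.19 to 0.54).

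*Robo4*, an endothelial guidance receptor that stabilizes the vessel wall, had the lowest p of the list. It stood at 45.5, 88.8, 81.2, 139.6 and 119.6 in control – PLX and at 51.3, 124, 35.7, 37.5 and 36.5 in *Tgfbr2*ΔEC – PLX. With PLX it stood at 154, 45.6, 116, 42.2 and 131 in controls and at 34.9, 38.5, 55.4, 39.1 and 32.2 in *Tgfbr2*ΔEC. Apart from mouse 7, the *Tgfbr2*ΔEC retinas lay between 32.2 and 55.4, while controls were spread from 42.2 to 154, so the groups overlapped in both diets. The log2 difference was −0.96 (95% interval −1.53 to −0.39, exact permutation p = 0.00683 unadjusted, adjusted p = 0.92), −0.81 without and −1.10 with PLX, and it was −1.05 with a sex term and −0.97 without mice 1 and 11. *Podxl*, a sialomucin of endothelium and other cells, was the only other endothelial member with an unadjusted p under 0.05 (log2 difference 0.14, adjusted p = 0.92). The 95% intervals of *Vwf* (von Willebrand factor, −1.02 to 0.40) and *Nos3* (endothelial nitric oxide synthase, −0.89 to 1.27) do not bound a 2-fold change.

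The 26 barrier and Norrin genes had a median of −0.05 with 16 lower, and 0 had an unadjusted p under 0.05. *Slc2a1*, the glucose transporter GLUT1, gave 0.06 (−0.09 to 0.20), and *Axin2*, a target of the Norrin and Wnt pathway through β-catenin, −0.01 (−0.14 to 0.12). *Mfsd2a*, the lipid transporter that restrains transcytosis, gave −0.14 (−0.53 to 0.26). *Plvap*, the diaphragm protein of leaky and fenestrated vessels, gave −0.23 (−0.55 to 0.09), and it was not higher in *Tgfbr2*ΔEC beyond 1.06-fold within that interval. *Tspan12*, a Norrin co-receptor, had the lowest p of the list (−0.17, −0.34 to 0.01, adjusted p = 0.92), and *Slco1c1*, a thyroid hormone transporter, the lowest on the higher side (0.21, −0.04 to 0.47).

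The 26 angiogenic genes had a median of −0.046 with 16 lower, and 0 had an unadjusted p under 0.05. *Vegfa*, the ligand that drives choroidal neovascularization, stood at 3874 in controls and 3880 in *Tgfbr2*ΔEC on average (log2 difference −0.005, 95% interval −0.17 to 0.16). *Angpt2*, the vessel-destabilizing angiopoietin, gave −0.09 (−0.41 to 0.23). *Hes1*, a Notch target, gave −0.27 (−0.56 to 0.01) and the neuropilin *Nrp2* 0.12 (−0.08 to 0.32). The tip-cell gene *Esm1* was too low to judge, at 0 to 8.07 normalized counts per retina, where 3 reads are worth 2.24 to 3.38. Among the 12 basement membrane genes the median was −0.04 with 8 lower, and *Col4a1*, the collagen IV chain, gave 0.02 (−0.24 to 0.28). *Lama5* was at −0.33 (−0.76 to 0.10) and *Nid2* at 0.25 (−0.37 to 0.86).

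Among the 20 mural genes the median was −0.09, with 12 lower. *Pdgfrb*, the PDGF receptor of pericytes, gave 0.06 (−0.10 to 0.21), and *Rgs5*, a G-protein regulator of pericytes, was at 1696 ± 238 in controls and 1724 ± 267 in *Tgfbr2*ΔEC (0.02, −0.17 to 0.21). The potassium-channel subunit *Abcc9* gave 0.27 (−0.06 to 0.60). *Acta2*, the smooth muscle actin, gave −0.29 (−0.69 to 0.12), and *Myh11*, the smooth muscle myosin, 0.04 (−0.24 to 0.33).

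*Tagln* (SM22α), an actin-binding protein of smooth muscle and a classical TGFβ target, had the lowest p of all 236 members. It stood at 161, 151, 85.1, 116 and 82.9 in control – PLX and at 60.2, 73.5, 74.9, 144 and 48.7 in *Tgfbr2*ΔEC – PLX. On PLX food its values were 148, 158, 83.1, 194 and 64.3 in controls and 73.6, 49.0, 61.4, 54.2 and 56.2 in *Tgfbr2*ΔEC. Mouse 9 was the only *Tgfbr2*ΔEC retina without PLX above the lowest control, and mouse 16 the only one with PLX. This gave a log2 difference of −0.82 (95% interval −1.265 to −0.37, exact permutation p = 0.00312 unadjusted, adjusted p = 0.92), −0.61 without and −1.02 with PLX. It was −0.70 with a sex term and −0.72 without mice 1 and 11. *Pcsk7* and *Gm48529* overlap *Tagln* on the opposite strand, and whether the counting used the strand is not given in the sources used here.

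The 20 genes of astrocytes and Müller glia had a median of 0.01, with 8 lower and 12 higher. Of the Müller genes, *Glul* (glutamine synthetase) gave 0.15 (−0.06 to 0.37), *Rlbp1* (CRALBP) 0.11 (−0.14 to 0.36), the water channel *Aqp4* 0.12 (−0.14 to 0.38), and the glutamate transporter *Slc1a3* 0.001 (−0.13 to 0.13). *Vim*, the intermediate filament shared by Müller glia, astrocytes, endothelium and lens, was at 3843 ± 1029 in controls and 3000 ± 551 in *Tgfbr2*ΔEC. Its log2 difference was −0.33 (−0.62 to −0.04, exact permutation p = 0.0427 unadjusted, adjusted p = 0.92), with 9 of 10 *Tgfbr2*ΔEC retinas below the control median of their diet. It was −0.23 with a sex term and −0.27 with a lens term.

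Among the 11 lists, which were chosen with earlier results of these data known, the 24 gliosis genes stood apart by sign. A lower estimate in *Tgfbr2*ΔEC was found for 24 of 24, with a median log2 difference of −0.35 beside −0.005 over all genes tested. The lens markers, outside these lists, were lower for 10 of 10 as well (median −0.624). None of the gliosis genes passed the adjusted test, and 4 had an unadjusted p under 0.05, or 16.7% beside 3.91% of all genes. That count was 1 with a sex term (4.17% beside 2.99% of all genes) and 1 with an RPE and choroid term (4.17% beside 4.04%). It was 2 without mice 1 and 11 (8.33% beside 3.41%) and 2 with a lens term (8.33% beside 3.34%). Without PLX alone it was 2 (8.33% beside 3.26%), and with PLX alone 1 (4.17% beside 2.71%). Genes of one response move together from mouse to mouse, so their number is not a number of independent observations. The mean log2 level over the list ran from 7.657 to 9.115 in controls and from 7.223 to 8.565 in *Tgfbr2*ΔEC, and the genotypes overlapped. The 4 genes were *S100a6*, a calcium-binding protein of reactive cells and epithelia, the protease inhibitor *Serpina3n*, the complement gene *C4b* and the siderophore-binding protein *Lcn2*.

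*S100a6* stood at 1262, 189, 293, 65.3 and 268 in control – PLX and at 169.8, 152, 91.1, 66.1 and 50.1 in *Tgfbr2*ΔEC – PLX. With PLX it stood at 278, 155, 283, 78.8 and 113 in controls and at 112, 124, 109, 76.8 and 68.3 in *Tgfbr2*ΔEC. The value of 1262 belongs to mouse 1, the retina with surface epithelium keratins, and the genotypes overlapped in both diets. The log2 difference of −1.10 (95% interval −1.89 to −0.31) was −0.72 without mice 1 and 11 and −0.80 with a sex term. *Serpina3n* gave −0.54 (−0.96 to −0.12) and −0.44 without mice 1 and 11.

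The list median was −0.254 with 23 of 24 lower without mice 1 and 11, −0.237 with 21 of 24 lower with a sex term, and −0.215 with 22 of 24 lower with a lens term. With an RPE and choroid term it was −0.175 with 17 of 24 lower, beside 51.7% lower of all genes in that fit. Without PLX the median was −0.40 with 23 of 24 lower, and with PLX −0.23 with 21 of 24 lower. Over all genes tested, 50.9% and 50.5% were lower in the same diets. MP markers were lower for 11 of 11 without PLX (median −0.25) and for 5 of 11 with PLX (median 0.024), and the gliosis members *Lcn2* and *Steap4* were among the genes called between the diets. Beyond the fits with a sex, lens or RPE and choroid term, the part of MP, lens, sex and RPE in the gliosis values was not tested.

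**Figure D2:**
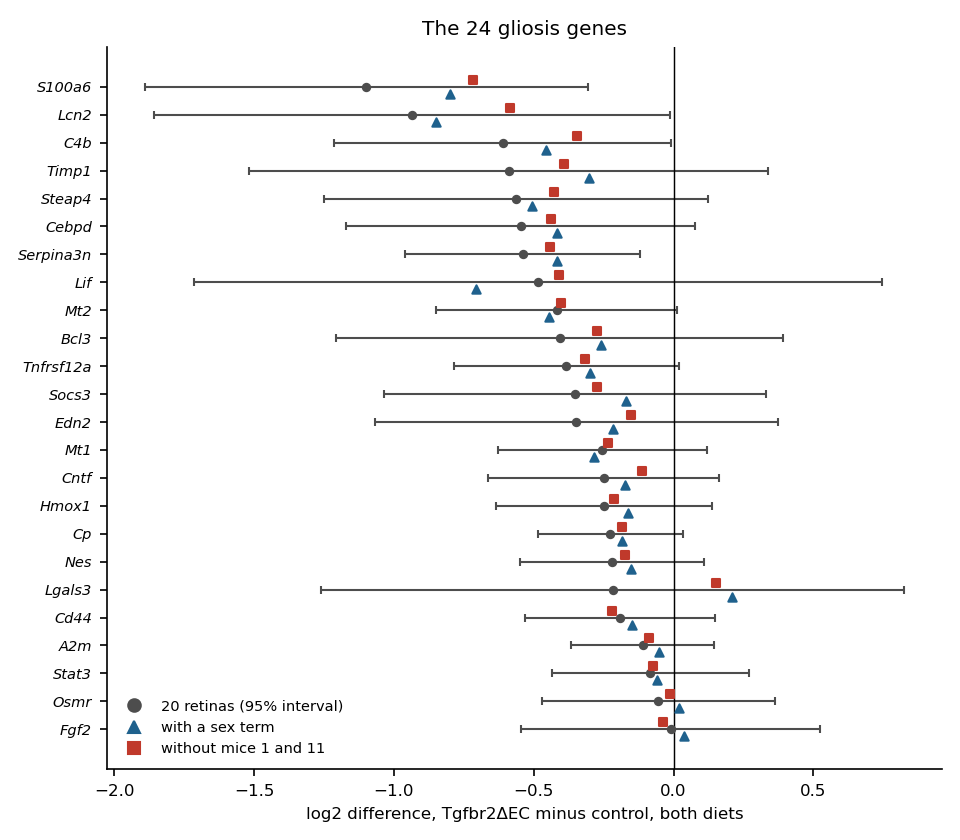
Log2 difference of the 24 gliosis genes between *Tgfbr2*ΔEC and control retinas over both diets; circles with bars are estimates with 95% intervals from 20 retinas, triangles those with a sex term and squares those without mice 1 and 11. All 24 circles lie left of 0, 4 of the bars exclude 0, and 20 triangles and 22 squares lie nearer to 0 than their circle.

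In the TGFβ pathway itself, the 39 ligands, receptors, Smads and modulators had a median of 0.02, with 18 lower and 21 higher, and all 39 had a 95% interval within 2-fold. Among the ligands, *Tgfb2*, the main isoform of neural retina, gave −0.001 (−0.17 to 0.17), *Tgfb3* −0.01 (−0.18 to 0.15) and *Tgfb1* −0.10 (−0.59 to 0.40). Among the receptors, the type I receptor *Tgfbr1* gave 0.09 (−0.14 to 0.31), the co-receptor *Tgfbr3* (betaglycan) 0.13 (−0.09 to 0.36), and *Acvrl1* 0.10 (−0.39 to 0.59). Among the Smads, *Smad2* gave 0.07 (−0.18 to 0.32), *Smad4* 0.10 (−0.13 to 0.32), and the inhibitory *Smad7*, which the pathway itself induces, −0.04 (−0.36 to 0.28).

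An unadjusted p under 0.05 was found for 2 of the 39 (5.13% beside 3.91% of all genes), *Bambi* and *Bmpr1b*. *Bambi*, a membrane pseudoreceptor that dampens TGFβ and BMP signals, stood at 96.2, 149, 125, 112 and 153 in control – PLX and at 83.4, 107, 93.8, 69.3 and 86.6 in *Tgfbr2*ΔEC – PLX. In the PLX groups it was at 115, 67.6, 106, 92.5 and 114 in controls and at 65.4, 78.1, 101, 80.6 and 105 in *Tgfbr2*ΔEC. All 10 *Tgfbr2*ΔEC retinas lay below the control median of their diet, and the groups overlapped in each diet. The log2 difference was −0.36 (−0.64 to −0.07, exact permutation p = 0.0133 unadjusted, adjusted p = 0.92), −0.52 without and −0.20 with PLX. *Bmpr1b*, a type I BMP receptor, was at 205 ± 56.8 in controls and 259 ± 55.3 in *Tgfbr2*ΔEC (0.34, 0.07 to 0.61, exact permutation p = 0.0197 unadjusted, adjusted p = 0.92), and 9 of 10 *Tgfbr2*ΔEC retinas lay above the control median of their diet.

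The 12 genes of latent TGFβ storage and release had a median of 0.01, 6 lower and 6 higher, and 0 had an unadjusted p under 0.05. *Thbs1*, the matrix protein thrombospondin 1 that can release latent TGFβ, gave 0.32 (−0.05 to 0.68), and the latency-binding protein *Ltbp3* −0.22 (−0.48 to 0.03). *Lrrc32* (GARP), which holds latent TGFβ on cell surfaces, gave 0.92 (−0.10 to 1.94). It was at 98.1 in mouse 9 and 150.3 in mouse 17, at 10.05 to 68.8 in the other *Tgfbr2*ΔEC retinas and at 5.19 to 44.3 in controls.

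The 30 target genes of TGFβ and BMP signaling had a median of −0.12, with 25 of 30 lower in *Tgfbr2*ΔEC beside 51.2% of all genes. The count holds *Tagln*, *Acta2*, *Bambi*, *Smad6*, *Smad7* and *Skil*, which stand in other lists too. An unadjusted p under 0.05 was found for 4 of the 30, or 13.3% beside 3.91% of all genes: *Tagln* and *Bambi*, described above, *Cdkn2b* and *Lox*. Without PLX it was found for 5 of the 30 (16.7% beside 3.26%), with 23 lower, and with PLX for 1 (3.33% beside 2.71%), with 20 lower. A sex term left 24 of 30 lower (median −0.09). Without mice 1 and 11 it was 22 (−0.095), with a lens term 22 (−0.105) and with an RPE and choroid term 22 (−0.124). Unadjusted p was under 0.05 for 3 with the sex or RPE and choroid term. It was so for 4 with the lens term and without mice 1 and 11. MP markers had 11 of 11 lower without PLX and 5 of 11 with PLX, and their part in these values was not tested. As in the gliosis list, genes are not independent observations.

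*Ccn2* (CTGF), a matricellular target, gave −0.51 without and 0.09 with PLX (−0.21 over both, −0.52 to 0.10). *Id1*, the target of the ALK1 and BMP branch, gave −0.14 (−0.51 to 0.23), and *Fn1* (fibronectin) −0.04 (−0.32 to 0.24). *Lox*, the collagen-crosslinking oxidase, ran the other way. It stood at 6.16, 13.9, 3.96, 1.22 and 18.5 in control – PLX and at 15.6, 10.7, 21.2, 36.4 and 9.86 in *Tgfbr2*ΔEC – PLX. Under PLX its values were 6.97, 8.57, 12.1, 2.40 and 3.97 in controls and 11.6, 15.5, 10.9, 12.1 and 8.58 in *Tgfbr2*ΔEC. All 10 *Tgfbr2*ΔEC retinas lay above the control median of their diet and the groups overlapped. On the log2 scale the difference was 1.05 (0.30 to 1.79, exact permutation p = 0.00898 unadjusted, adjusted p = 0.92), at counts so low that a few reads decide each value.

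Of 13 leukocyte adhesion genes, cytokines and fibrinogen chains, 8 could be tested, and their median was −0.17 with 5 lower. Without PLX 8 of 8 were lower (median −0.51) and with PLX 2 were lower and 4 higher (median 0.017), beside 50.9% and 50.5% lower of all genes. The MP markers had 11 of 11 and 5 of 11 lower in the same diets, and their part in these values was not tested. *Vcam1*, the adhesion molecule that captures leukocytes and that Müller glia express too, stood at 532, 375, 476, 345 and 589.6 in control – PLX and at 402, 306, 255, 343 and 302 in *Tgfbr2*ΔEC – PLX. With PLX it stood at 344, 348, 428, 308 and 277 in controls and at 296, 381, 208, 291 and 247 in *Tgfbr2*ΔEC. Of the *Tgfbr2*ΔEC retinas 9 of 10 lay below the control median of their diet, with overlap in each diet. The log2 difference was −0.39 (−0.65 to −0.13, exact permutation p = 0.00746 unadjusted, adjusted p = 0.92), −0.51 without and −0.27 with PLX, and −0.32 with a sex term. *Il6*, *Fga* and *Fgb* were at 0 in each of the 20 retinas, which allows up to 3 reads or 2.24 to 3.38 normalized counts per library. *Fgg* reached 4.71 in mouse 17 and at most 2.49 in the others, and the endothelial selectin *Sele* at most 2.59.

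**Figure D3:**
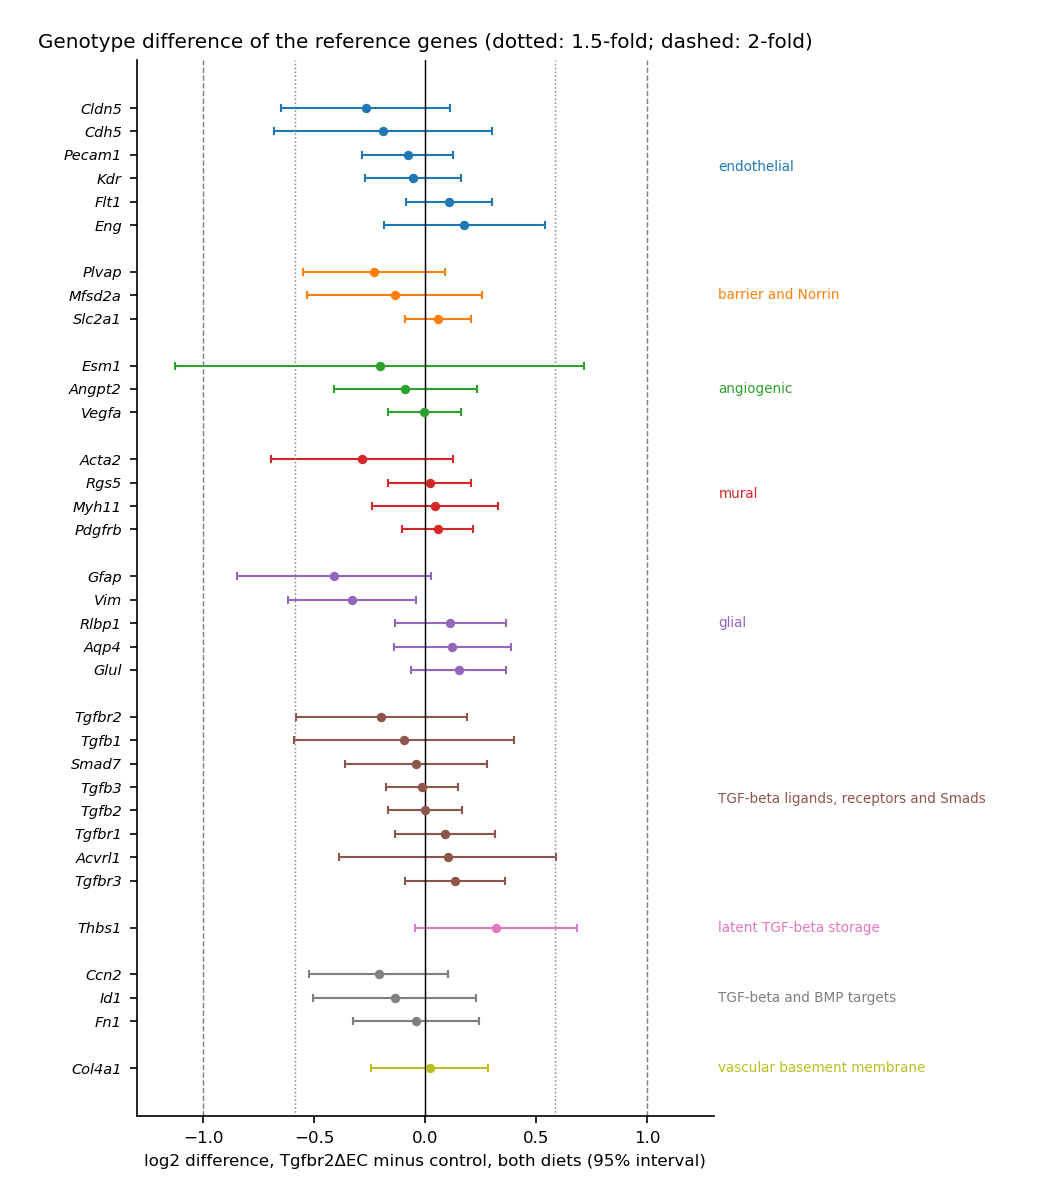
Log2 difference between *Tgfbr2*ΔEC and control retinas over both diets for 34 reference genes, ordered by gene list; circles are estimates, bars 95% intervals, dotted lines 1.5-fold and dashed lines 2-fold. The intervals of 33 genes include 0, *Vim* is the exception, and that of *Esm1* reaches past 2-fold.

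What 10 mice a side could exclude was read from the 95% intervals. Of 35 reference genes, picked from the lists as their best-known members (the 36th, *Il6*, could not be tested), 25 had an interval wholly within 1.5-fold in both directions and 33 within 2-fold, with *Esm1* among those outside. The exact permutation test within diets, over all relabellings, with a smallest possible p of 3.15e-05, left 1 of the 35 below an unadjusted 0.05, *Vim* (exact p = 0.0427). Of the 236 members, 137 (58.1%) had an interval within 1.5-fold and 194 (82.2%) within 2-fold, beside 53.5% and 72.7% of all genes tested. The tightest lists were glial (16 of 20 within 1.5-fold), barrier and Norrin (21 of 26), and TGFβ ligands, receptors and Smads (27 of 39). The loosest were leukocyte adhesion and cytokines (0 of 8) and gliosis (7 of 24).

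The bound depended on the level of a gene. The median one-sided width of the interval was 0.89 on the log2 scale for genes with a mean of 1 to 10 normalized counts, 0.56 from 10 to 100, 0.26 from 100 to 1000, and 0.20 from 1000 upwards. Members with a mean of at least 100 numbered 159, and 146 of them had an interval within 2-fold, while 48 of the 77 below 100 did. Of the 13 that did not in spite of their level, 5 were *Gja1* (connexin 43), *Nos3*, *Notch4*, *Vwf* the collagen gene *Col1a1*, and the other 8 were gliosis genes: *S100a6*, *Lcn2*, *Edn2*, *Lgals3*, *Socs3*, *Bcl3*, *Cebpd* and *C4b*.

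**Figure D4:**
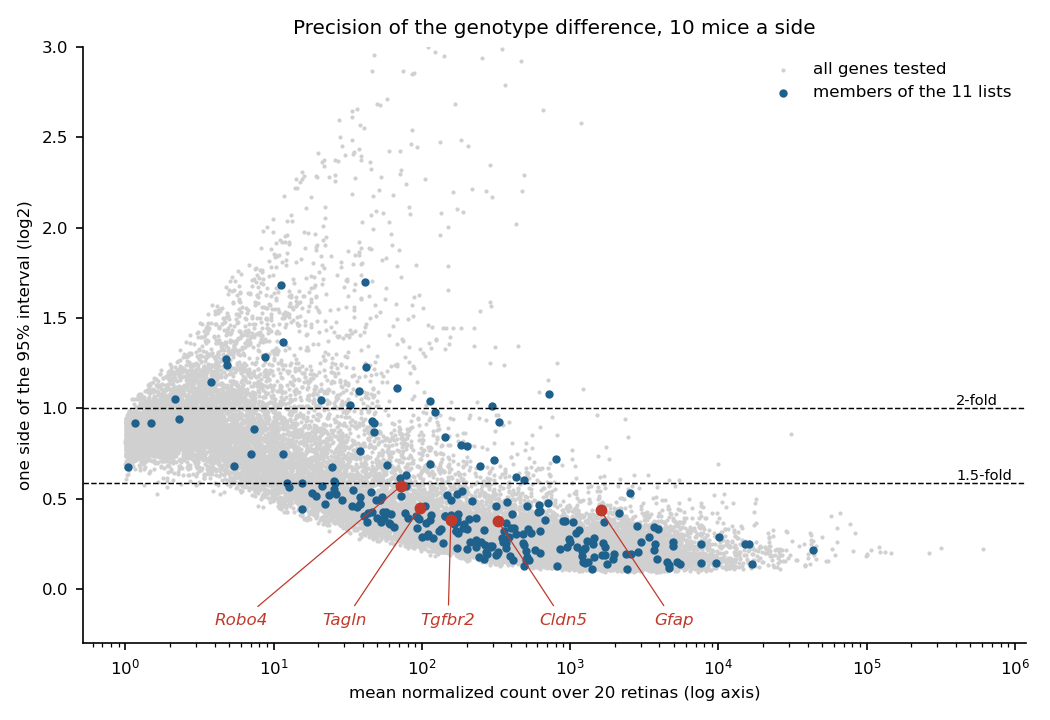
One side of the 95% interval of the genotype difference (log2) against the mean normalized count over 20 retinas (log axis) for all genes tested (grey) and the members of the 11 lists (blue), with 5 named genes in red; dashed lines mark 1.5-fold and 2-fold. Widths fall from a median of 0.89 at means of 1 to 10 to 0.20 at means of 1000 and over, and 23 grey points lie above the plotted range.

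The size needed for a call was larger than these bounds. For a gene to be called on its own, with no other gene called, an unadjusted p of 2.15e-06 was needed, which for the median member meant an estimated difference of 1.14 on the log2 scale (2.2-fold), and for the median gene tested 1.16 (2.23-fold). It was 1.18 for *Tgfbr2*, 1.17 for *Cldn5*, 1.34 for *Gfap*, 0.63 for *Pecam1*, 0.57 for *Rgs5* and 0.49 for *Pdgfrb*. The median needed was 0.79 for glial genes, 0.80 for barrier genes, 1.20 for endothelial, 1.27 for mural and 1.48 for gliosis genes. These sizes are for RNA of the whole retina, in which endothelium is a small part, and a larger change within endothelial cells of a gene that other cells also express would lie inside them.

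The diets gave side by side a picture of how far the genotype difference held. Of 236 members, 92 (38.98%) were lower in *Tgfbr2*ΔEC in both diets, 47 (19.92%) higher in both, and 97 (41.1%) opposite in sign, beside 30.28%, 28.75% and 40.96% of all genes. The test of the difference between diets called 0 of 23243 genes (0.0%), with 567 at an unadjusted p under 0.05 (2.44%), and 5 members among them. These were the chemokine receptor *Cxcr4* (−0.83 without and 0.24 with PLX), the integrin *Itgb6* (−0.95 and 1.361, at a mean of 2.29 normalized counts), the basement membrane gene *Nid2* (−0.43 and 0.93), *Hey1* (−0.12 and 0.34) and *Ccn2*. Each of the 5 was lower in *Tgfbr2*ΔEC without PLX and higher with it, at an adjusted p of 1.00 for the difference between diets.

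**Figure D5:**
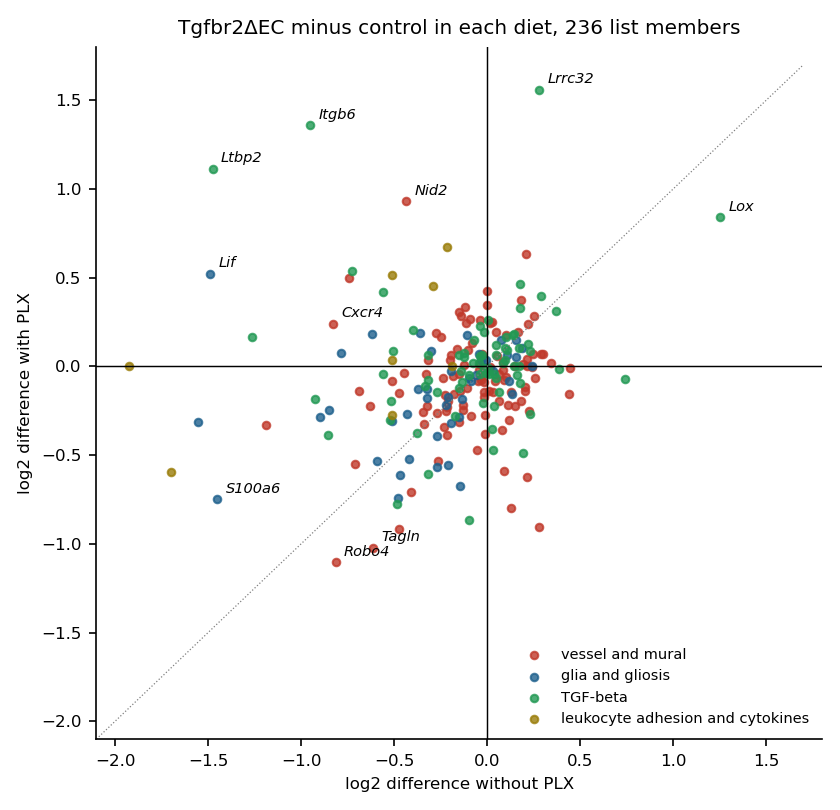
Log2 difference between *Tgfbr2*ΔEC and control retinas without PLX (horizontal) and with PLX (vertical) for 236 list members, coloured by kind of gene; the dotted line marks equal differences. Of the points, 92 lie at lower left, 47 at upper right and 97 elsewhere, and *Robo4* and *Tagln* are low in both diets.

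The genes with the lowest p over the whole table were no members of the lists. *Ankrd34b*, an ankyrin-repeat gene, stood at 51.0, 44.1, 58.3, 54.0 and 50.4 in control – PLX and at 76.3, 103, 74.8, 99.8 and 82.6 in *Tgfbr2*ΔEC – PLX. For mice on PLX it was at 48.9, 54.9, 51.9, 48.2 and 45.3 in controls and at 59.1, 65.4, 51.2, 72.8 and 64.2 in *Tgfbr2*ΔEC. The groups did not overlap without PLX, and with PLX mouse 18 alone fell within the controls. The log2 difference was 0.53 (0.27 to 0.79, adjusted p = 0.92). *Gle1*, an mRNA export factor, gave 0.39 and *Dnhd1*, a dynein heavy-chain domain gene, 0.44, both at an adjusted p of 0.92.

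On the lower side the lowest p belonged to *Gm3488* (−2.275), *Gm50251* (−1.40, both at an adjusted p of 0.84) and *Hmcn1* (−1.365, adjusted p = 0.92). *Gm3488* was at 0 in the 5 *Tgfbr2*ΔEC – PLX retinas and at 0 to 22.1 in the 5 controls of that diet, and *Gm50251* was at most 5.05 in any retina and lies over *Ppp1ca* on the opposite strand. *Hmcn1*, the matrix protein hemicentin 1, was at 87.0 to 254 in controls and 28.6 to 167 in *Tgfbr2*ΔEC, with overlap.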

How the data were processed

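Retina RNA was sequenced by the authors as stranded poly(A) libraries with single reads. Per the study's methods and the submitters' processing notes, reads were checked with FastQC 0.11.5, quantified with Salmon 1.10.1 on GRCm39 and normalized with DESeq2 1.36.0. The values used are the authors' normalized counts, a signal unit: estimates per gene scaled between libraries, with both tissues scaled together. Whether a library had 1 size factor or factors that differ by gene is not given in the sources used here. Read numbers and floors here assume 1 factor per library. The methods describe separate analyses of retina and choroid, but in the deposited table the median ratio to the gene means was 1.0082 in each of the 40 libraries, against 0.9921 to 1.0359 over the retinas alone. The values are not raw counts, and whole reads could not be recovered (50.1 to 75.9% of low values lay within 0.1 of a whole number), so no count model was run. Of 54307 genes in the table, 53700 matched the GENCODE M39 annotation.

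The 20 retinas were grouped by the genotype and diet in their labels. Genes averaging 1 normalized count or more over the retinas entered the test, on log2(normalized count + 1), a scale that understates changes of low genes, with limma 3.58.1 in R 4.3.3 (empirical Bayes with trend). The comparison over both diets used genotype and diet as terms. Those within a diet and the difference between diets came from 1 fit of the 4 groups. A call is a Benjamini-Hochberg adjusted p of at most 0.05 over all 23243 genes. Exact permutation tests were two-sided and permuted genotype within diet. The study's own tests used sex and an estimated neuronal share as covariates, which the labels do not give, so a sex score from the data was used as an alternative. The fits were tested on simulated data. Within groups, retinas correlated at 0.9477 to 0.9736. The mice are separate animals.

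The members and lists were chosen with earlier results of these data known. Genes were named by a rule: each reference gene, any member called, the member of each list with the lowest p in each direction at a mean of at least 10, and the 3 genes with the lowest p in each direction over the table. Other genes named as members of a count, and *Axin2*, *Slc1a3*, *Smad2*, *Smad4*, *Vwf* and *Nos3*, were chosen after their values were seen. Alternatives varied the pseudocount, filter, scaling, variance model, covariates and mice. The choroid libraries were used only for the check of scaling, and some items are not reported here.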

Additional observations from a re-analysis of the deposited data

Results flagged for a closer look

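Among groups of 5 retinas, 1 retina lay apart from the other 4 in 24 of 235 groups examined for the named genes, its gap to the nearest retina being over 0.71 of the group's range. For normally distributed values chance gives about 1 in 20 groups, here about 11.8. The gaps were taken on normalized counts, which can spread unevenly toward high values. The 24 groups therefore cannot be read as an excess over chance. Of control – PLX retinas, mouse 1 was highest for *S100a6* (gap 0.81 of the range), mouse 2 for *Gm3488* (0.737), and mouse 4 for *Acvrl1* (0.766) and *Bmpr1b* (0.861) and lowest for *Ccn2* (0.713). Of *Tgfbr2*ΔEC – PLX retinas, mouse 6 was lowest for *Slc2a1* (0.72) and highest for *Ccn2* (0.804). Mouse 7 was highest for *Plvap* (0.78) and *Robo4* (0.823) and lowest for *Tgfbr1* (0.734). Mouse 9 was highest for *Esm1* (0.714), *Acvrl1* (0.747), *Tagln* (0.727), *Lrrc32* (0.929) and *Nid2* (0.731).

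Of control + PLX retinas, mouse 11 was highest for *Cldn5* (0.761) and *Plvap* (0.775), mouse 12 for *Esm1* (0.89) and *Acvrl1* (0.861), and mouse 15 for *Mfsd2a* (0.755). Of *Tgfbr2*ΔEC + PLX retinas, mouse 16 was highest for *Esm1* (1.0, with the other 4 at 0), mouse 17 for *Smad7* (0.769) and mouse 18 for *Mfsd2a* (0.773), and mouse 20 was lowest for *Kdr* (0.757).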

How the results depend on the processing

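No genotype call was made by limma over both diets, without PLX or for the difference between diets in any alternative run. With PLX the count ranged from 0 to 1 when each mouse was left out in turn: without mouse 12 *Sp140* was called (log2 difference 3.24, adjusted p = 0.0467), a gene chosen after its values were seen, at 0 in 4 controls and 3.55 in mouse 12 against 4.50 to 12.1 in *Tgfbr2*ΔEC. Genes with an unadjusted p under 0.05 numbered 593 to 1554 over both diets, 461 to 1563 without PLX, 361 to 1108 with PLX and 299 to 1008 for the difference between diets. The lowest of each came with a minimum mean of 10, where fewer genes were tested. The highest came without mouse 7, without mouse 7, with no filter, and without mice 1 and 11 (856 without mouse 11 alone).

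Of 59 named genes, 47 kept their direction in each alternative and 12 did not, and the lowest adjusted p of a named gene in any of them was 0.0948. The estimate of 45 of the 59 moved by over 1.5 times in at least 1 alternative, 37 of them on leaving out 1 mouse. Among the larger ones, *Plvap* was at −0.118 without mouse 11, *Lama5* at −0.202 without mouse 11, *Acta2* at −0.157 without mouse 10, *Tgfbr2* at −0.116 without mouse 7, *Eng* at 0.068 without mouse 17, *Thbs1* at 0.19 without mouse 13 and 0.085 with the RPE and choroid score, *Slco1c1* at 0.065 and *Lrrc32* at 0.516 with that score, and *Gm3488* at −1.113 and *Gm50251* at −0.491 with a pseudocount of 5. With a sex score the log2 difference was 0.025 for *Kdr*, 0.208 for *Esm1* and 0.001 for *Tgfb2*. With an RPE and choroid score it was 0.064 for *Tgfb2*, −0.114 for *Acvrl1*, 0.026 for *Smad7*, 0.105 for *Fn1* and −0.041 for *Nid2*. With a lens score it was 0.006 for *Vegfa*, 0.008 for *Tgfb2*, 0.011 for *Smad7* and 0.0 for *Fn1*. Without mice 1 and 11, an alternative chosen after seeing the data, it was −0.038 for *Rgs5*, 0.032 for *Tgfb1* and −0.016 for *Col4a1*. Leaving out each mouse in turn gave −0.02 to 0.236 for *Acvrl1*, −0.027 to 0.093 for *Col4a1*, −0.423 to 0.098 for *Esm1*, −0.097 to 0.029 for *Fn1*, −0.02 to 0.065 for *Rgs5*, −0.105 to 0.038 for *Smad7*, −0.187 to 0.022 for *Tgfb1*, −0.038 to 0.046 for *Tgfb2*, −0.048 to 0.014 for *Tgfb3* and −0.04 to 0.028 for *Vegfa*. The cause was not tested. No paired analysis was possible because the groups share no replicate numbers. Sex, RPE, lens and genotype overlap in these retinas, and low genes such as *Esm1* and *Lox* are limited by depth.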
